A study of Homo sapiens with 8 samples.

Results

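H146 and H716 are the 2 lines, of 8 human cancer cell lines in the series, with high RNA for the granule genes CHGA and CHGB and the transcription factor INSM1. They were picked by those measured values, together with SCG3, and were set against the 6 other lines. H146 derives from small cell lung cancer, and H716 from an adenocarcinoma of the cecum. The other 6 are H522 (non-small cell lung cancer), H661 (large cell lung cancer), KLE (endometrial adenocarcinoma), HEC59 (endometrial carcinoma), COV318 (serous epithelial ovarian carcinoma) and 1321N1 (brain astrocytoma). The design describes all 8 lines as expressing ERBB4; the cells stood 48 hours in culture before RNA was taken, and no drug is named in the protocol. The design names 4 lines that respond to ibrutinib, a kinase inhibitor, and 4 that do not, but no label says which line is which, so response was not compared here. Each line is 1 tumour with 1 RNA sequencing library, so lung or gut origin, the donor and the library cannot be told apart from the trait shared by H146 and H716. Because the 2 lines were chosen on these same libraries, every difference below is a description and carries no test.

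Neuroendocrine cells store peptide hormones and amines in dense-core granules and release them when calcium enters the cell. Granins such as chromogranin A pack the granule, prohormone convertases cut the cargo, and SNARE proteins fuse the granule with the plasma membrane. In lung and gut the differentiation of these cells is driven by factors such as NEUROG3 and INSM1, and it is held back by Notch signalling and by the repressor REST.

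Levels are given as FPKM, fragments per kilobase of transcript scaled to the library's mapped fragments, and differences as log2(FPKM + 1). Of 58202 identifiers in the files, 15650 reached an FPKM of 1 in no fewer than 2 lines and were compared. A gene was called separated when both H146 and H716 lay beyond all 6 other lines by a gap of at least 1 on the log2 scale. By that rule 185 genes were higher in both lines (1.18% of 15650) and 93 were lower in both (0.594% of 15650). These shares are the background for each list below. Since the same contrast defined the pair, nothing is read from a list standing above them. The median difference over all 15650 genes was -0.13, and it lay at -0.02 after quantile normalization and at 0 with no filter.

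Sums over all FPKM values, without values above 100000, lay between 376880 and 511451 in the 8 lines, and 12205 to 13300 genes reached an FPKM of 1. Only KLE, HEC59 and 1321N1, all among the 6 other lines, held values above 100000. With those values their sums were 2.45e+06, 846097 and 1.38e+06. The number of reads behind them is unknown. Low values fell on shared steps more often within 2 sets of libraries (H146 with 1321N1, HEC59 and COV318; H716 with H522, H661 and KLE) than between them, 19.1% to 30.9% against 7.69% to 21.7%. With H146 and H716 each set against the 3 others of its own set, 238 genes were higher and 126 lower. A gap to fewer lines cannot be narrower, so these counts could not fall below 185 and 93. Across the 15650 genes, the line most like H146 by Spearman correlation was H716 (0.725), whereas for H716 4 other lines came ahead of H146, with H661 (0.744) first. Genes are not independent replicates, and these coefficients describe only the libraries.

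The 4 genes used to pick the lines were high in H146 and H716 and near 0 elsewhere. CHGA (ENSG00000100604), which encodes chromogranin A, had 7.59 FPKM in H146 and 15.4 FPKM in H716, against a lowest value of 0, a median of 0.117 and a highest of 0.371 FPKM in the 6 other lines. CHGB (ENSG00000089199), its relative chromogranin B, had 12.8 and 55.6 FPKM in H146 and H716, against 0 to 0.701 FPKM (median 0.11) in the others. SCG3 (ENSG00000104112), a granin that binds chromogranin A, had 27.4 and 68.3 FPKM in H146 and H716, against 0 to 1.11 FPKM (median 0.0759). INSM1 (ENSG00000173404), a zinc finger factor of endocrine progenitors, had 81.3 FPKM in H146 and 5.27 FPKM in H716, against 0 to 0.236 FPKM, with 5 of the 6 others listed at 0. The groups did not overlap for any of the 4, and INSM1 differed most between H146 and H716 themselves. These values restate the choice of the lines. In bulk RNA, fewer cells with a gene and less RNA per cell cannot be told apart, here or below.

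**Figure D1:**
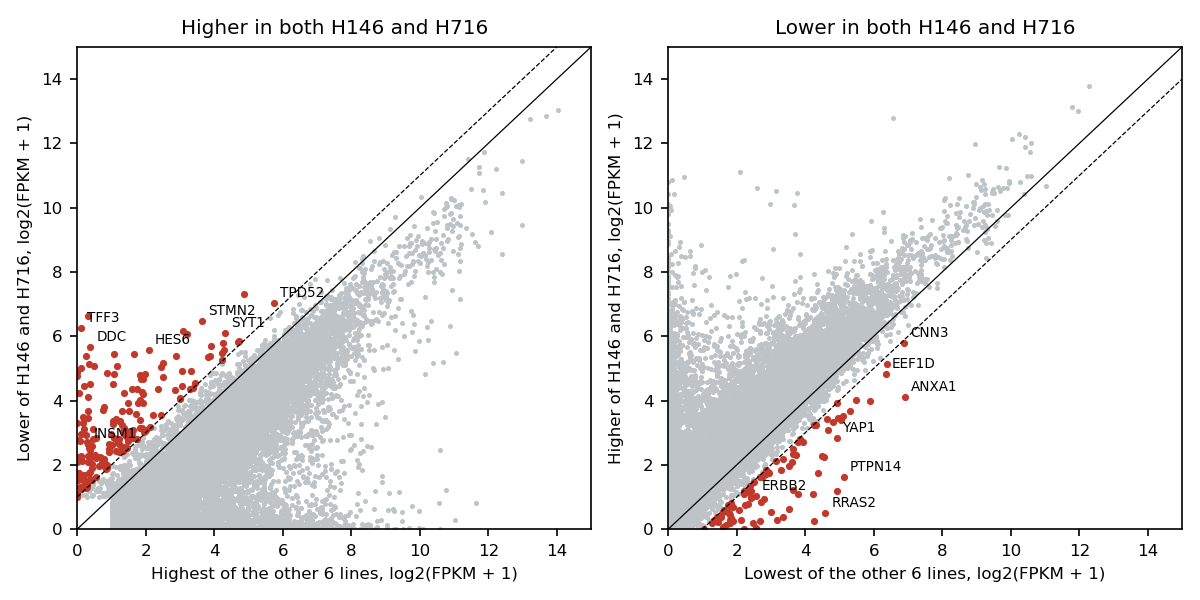
Each point is 1 of 15650 genes, on log2(FPKM + 1) axes. The left panel plots the lower of H146 and H716 (vertical) against the highest of the other 6 lines (horizontal), and the right panel the higher of H146 and H716 against the lowest of the other 6. In the left panel 1 gene lies beyond the horizontal axis and is not drawn. Red points lie past the dashed line, a gap of 1 from equality: 185 genes at left and 93 at right.

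The widest gap above the 6 other lines was that of HEPACAM2, an adhesion molecule of the immunoglobulin family, with 98.9 FPKM in H146 and 109 FPKM in H716, against at most 0.24 FPKM in the others. TFF3, a secreted trefoil peptide of mucous epithelia, followed with 91.7 and 75.0 FPKM in H146 and H716, against at most 0.0805 FPKM, and 5 of the 6 others were listed at 0. DDC, the decarboxylase that makes dopamine and serotonin, had 194 and 49.7 FPKM in H146 and H716, against at most 0.304 FPKM. All 3 were low in every one of the 6 other lines. TOX3, PROX1, TAGLN3, TMEM176A, DCX, RAB3C, SYT4, HES6 and NOL4 were also among the 20 widest gaps. DCX, a microtubule protein of migrating neurons, stood at nearly the same level in both lines, 18 FPKM in H146 and 18.8 FPKM in H716, against at most 0.0442 FPKM. TMEM176A had 323 and 42.2 FPKM in H146 and H716, against at most 1.11 FPKM; its near copy TMEM176B lies beside it, so reads shared by both could be split. MTSS1, which binds actin and membranes, reached 71.3 FPKM in H146 and 2001 FPKM in H716, against 0.375 to 7.58 FPKM in the others.

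Of the 185 higher genes, 145 were protein-coding in GENCODE 29, and 95 reached an FPKM of 1 in H146 and H716 alone and so could pass the filter only by being high there. Their median level was 10.7 FPKM in H146 and 11.7 FPKM in H716, and the median of their highest value among the 6 other lines was 0.884 FPKM. H146 was the higher of the 2 lines for 88 of them and H716 for 97. In 77 of the 185, H146 and H716 differed from each other by at least 1 on the log2 scale, so a shared direction often came with unequal levels. At the edge of the rule, PCDH20 (1.01 and 1.25 FPKM in H146 and H716, listed at 0 in the others) lay just inside, with a gap of 1.01. SLC16A7 (28.6 and 51.1 FPKM, against at most 14.1 FPKM) lay just outside, with a gap of 0.98. With a pseudocount of 5 in place of 1, which shrinks differences at low levels, the gap was under 1 for INSM1, PCSK1, PCSK2, FOXA1, FOXA2, STX1A, SYP, SYN1, CPLX2, SRRM4, TPH2, KCNJ3, CELF3, RET and ABCA3 among the higher genes checked, and for LATS2, ERBB2 and ZNF382 among the lower ones.

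Granule cargo and processing genes were higher in both lines for 8 of 22 members. All 22 were in the files, 19 passed the filter, 6 of those only through H146 and H716, and 8 were separated upward with none downward. Their median difference was 2.85, and 2.51 over all 22 with no filter, against -0.13 over all genes tested. It rested more on H146 (3.14) than on H716 (1.54) over the 19. Without H146 it was 1.05, over fewer members. The filter was then applied again, and members that passed only through H146 and H716, such as CHGA and CHGB, dropped out. CHGA, CHGB and SCG3, which were used to pick the lines, are among the 8 and are part of the medians over 19 and 22 members. Apart from them, the 8 comprised SCG2, CPE, PCSK1, PCSK2 and SYT4. SCG2, secretogranin II, had 87.1 FPKM in H146 and 54.8 FPKM in H716, against 0.244 to 18.2 FPKM (median 0.958) in the others, where 1321N1 was highest. CPE, the carboxypeptidase that trims cut prohormones, had 25.7 and 115 FPKM in H146 and H716, against 0.0819 to 4.63 FPKM (median 0.297). Both convertases were present, in opposite proportion. PCSK1 had 4.59 FPKM in H146 and 125 FPKM in H716, against at most 0.881 FPKM. PCSK2 had 26.6 FPKM in H146 and 3.35 FPKM in H716, against at most 0.0913 FPKM. SYT4, a synaptotagmin of dense-core granules, had 78.0 and 16.4 FPKM in H146 and H716, against at most 0.242 FPKM. PAM, which amidates peptides, overlapped between the groups, with 59.2 FPKM in H146 and 15.1 FPKM in H716, against 0.108 to 44.7 FPKM in the others. VGF, another granin-like cargo, had 46.4 FPKM in H716 but 0.615 FPKM in H146, against at most 0.49 FPKM.

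Transcription factors of neuroendocrine and endoderm cells were split between a shared set and sets of 1 line. Of 41 listed, 17 passed the filter, 7 of them only through H146 and H716, and 16 lay below 1 FPKM in all 8 lines. Separated upward were 9, among them INSM1, PROX1, ST18, HES6, FOXA1, FOXA2, ONECUT2 and PAX5. The median difference was 3.06 over the 17 and 0.59 over all 41 with no filter. Taken alone over the 17, it was 3.07 in H146 and 2.60 in H716. Without H146 it was 1.64, over fewer members, since those that passed only through H146 and H716 then failed the filter. INSM1, which was used to pick the lines, is part of the 9 and of these medians, except the median without H146. HES6, which antagonises the Notch target HES1, stood at like levels in both lines, with 51.0 and 46.5 FPKM in H146 and H716, against 1.52 to 3.24 FPKM (median 2.43). On the log2 scale that is 5.64 ± 0.09 in H146 and H716 (SD, n = 2) and 1.72 ± 0.27 in the 6 other lines (SD, n = 6). PROX1, a homeobox factor of endocrine and hepatic progenitors, had 51.1 and 33.9 FPKM in H146 and H716, against 0.00706 to 0.263 FPKM (median 0.0419). PAX5, better known from B cells, had 5.79 and 5.76 FPKM in H146 and H716, against at most 0.0202 FPKM. The pioneer factors were less clear-cut: FOXA2 had 18.9 and 5.26 FPKM in H146 and H716, against at most 0.909 FPKM, and FOXA1 had 19.3 and 35.2 FPKM, against 0.234 to 8.71 FPKM with H522 highest.

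Some listed factors reached 1 FPKM in 1 of the 2 lines and not in the other. RFX6, a factor of gut and pancreatic endocrine cells, had 14.2 FPKM in H716 and was listed at 0 in H146 and in all 6 others. NEUROG3, the inducer of enteroendocrine fate, had 1.27 FPKM in H716 and was likewise listed at 0 in H146 and the 6 others. MYT1L, NKX2-2 and ONECUT1 had 9.13, 2.69 and 3.55 FPKM in H146, and 0, 0 and 0.0409 FPKM in H716. NEUROD1 lay at 0.0906 FPKM in H146 and was listed at 0 in H716, and POU2F3, the tuft cell factor of some small cell cancers, was listed at 0 in both. None of these factors passed the filter, because at most 1 line reached 1 FPKM.

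**Figure D2:**
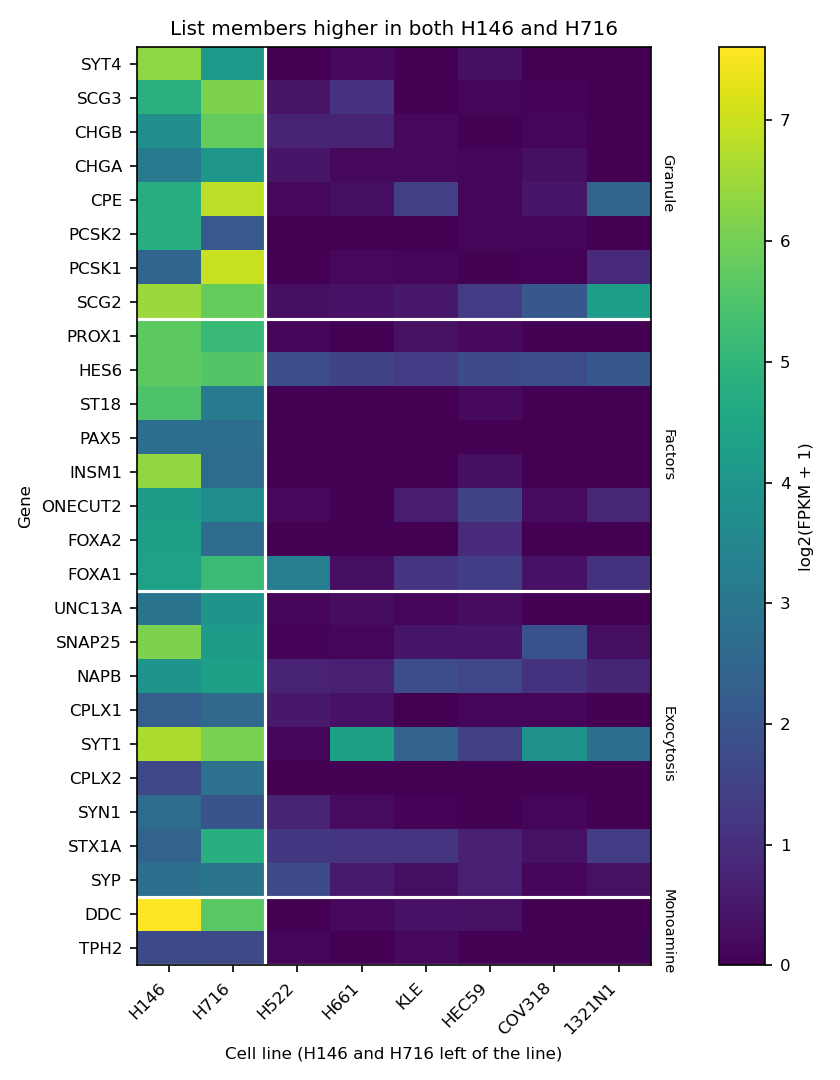
Rows are members of the granule, transcription factor, exocytosis and monoamine lists that were higher in both H146 and H716, and columns are the 8 lines, with H146 and H716 at left. Colour is log2(FPKM + 1). The 2 left columns are brighter than the 6 others in every row, by the rule that chose the rows, and they differ from each other for PCSK1, INSM1 and STX1A.

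Hormone RNAs differed line by line and none was shared. Of 35 listed, 10 passed the filter, none only through H146 and H716, and 0 were separated in either direction, while 18 lay below 1 FPKM everywhere. GCG, which encodes glucagon and GLP-1, had 1104 FPKM in H716 and was listed at 0 in H146, against at most 9.70 FPKM in the others. SST, somatostatin, had 475 FPKM in H716 and was listed at 0 in H146, against at most 36.4 FPKM, in COV318. NTS, neurotensin, had 971 FPKM in H146 and 1.44 FPKM in H716, against 0.0484 to 26.0 FPKM. PENK, proenkephalin, had 20.3 FPKM in H146 and was listed at 0 in H716, against at most 0.0361 FPKM. GRP, the bombesin-like peptide of lung neuroendocrine cells, had 4.86 FPKM in H146 and was listed at 0 in H716, against at most 1.06 FPKM in KLE. The median difference over the 10 members was 0.66 for the mean of the 2 lines, but -0.12 for H146 and -0.24 for H716 taken alone, and it was 0 over all 35 with no filter. Of 5 somatostatin receptors none passed the filter. SSTR1 had 5.17 FPKM in H716 and 0.0569 FPKM in H146, and SSTR2, the receptor imaged in patients, had 0.267 FPKM in H146 and 0.206 FPKM in H716.

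Of 35 genes of synaptic vesicles and exocytosis, 28 passed the filter, 5 only through H146 and H716, and 9 were separated upward and 0 downward. The median difference was 1.44 over the 28 and 1.17 over all 35 with no filter. Taken alone over the 28, it was 1.59 in H146 and 1.02 in H716. Without H146 it was 0.88, over fewer members, since those that passed only through H146 and H716 then failed the filter. The 9 included membrane SNAREs, a calcium sensor and priming factors. SNAP25, a plasma membrane SNARE, had 67.6 and 17.5 FPKM in H146 and H716, against 0.0597 to 2.79 FPKM (median 0.286). STX1A, its syntaxin partner, had 4.37 and 26.4 FPKM in H146 and H716, against 0.27 to 1.53 FPKM (median 1.23). SYT1, the calcium sensor, had 101 and 67.2 FPKM in H146 and H716, but also 19 FPKM in H661 and 14 FPKM in COV318. UNC13A, a priming factor, had 6.66 and 14.2 FPKM in H146 and H716, against at most 0.191 FPKM. SYP, the diagnostic vesicle marker synaptophysin, had 6.00 and 6.67 FPKM in H146 and H716, against 0.0734 to 2.37 FPKM with H522 highest. CPLX1, CPLX2, NAPB and SYN1 complete the 9. SV2B and SYN2 reached 1 FPKM in H146 alone, at 19.9 and 9.0 FPKM in H146, and both were listed at 0 in H716.

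SYN1, a phosphoprotein that tethers synaptic vesicles, is a textbook target of REST, which binds the RE1 element. SYN1 had 5.47 and 2.94 FPKM in H146 and H716, against 0 to 0.702 FPKM (median 0.0603). Promoter windows of 300 bases that span the gene start, most of them before it (RefSeq, GRCh38.p14), were found for 123 of the 185 higher genes and 74 of the 93 lower ones. The RE1 core, searched on both strands with 2 inner bases left free, was present in 2 of the 123 (1.63%), SYN1 and TMEM179, and in 0 of the 74. It was in 14 of all 27195 windows (0.0515%). Among the 10773 windows of genes past the filter it was in 3 (0.0278%), SYN1 and TMEM179 included. SYN1 passed the filter only through H146 and H716. TMEM179, a transmembrane protein, had 4.70 and 4.28 FPKM in H146 and H716, against 0 to 1.34 FPKM, and its gap was under 1 after scaling to a common sum and with a pseudocount of 5. The E-box CAGCTG, also searched on both strands, which proneural factors can bind, was in 16.3% of the higher genes' windows, 13.5% of the lower genes', 17.7% of all windows and 16.6% of the windows of genes past the filter. A related E-box, CAGATG, was in 13.0% of the higher genes' windows, 20.3% of the lower genes', 14.7% of all windows and 9.32% of the windows of genes past the filter. A match describes letters only. The windows of SYN1 and TMEM179 are shown for the RE1 core, and those of SCG3 and HES6 for the E-box, with every matched motif in capitals and the gene's own strand running 5′ to 3′. In SYN1 the core begins 231 bases before the gene start, and in TMEM179 it lies on the opposite strand, 137 bases before it.
SYN1 promoter, GRCh38.p14, chrX:47619808-47620107, minus strand: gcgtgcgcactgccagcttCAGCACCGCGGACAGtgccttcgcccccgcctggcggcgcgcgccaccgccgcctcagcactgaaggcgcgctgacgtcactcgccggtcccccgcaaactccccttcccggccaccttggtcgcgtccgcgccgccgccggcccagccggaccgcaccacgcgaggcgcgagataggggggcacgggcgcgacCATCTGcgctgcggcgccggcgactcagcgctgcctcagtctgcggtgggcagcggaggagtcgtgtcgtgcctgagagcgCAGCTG
TMEM179 promoter, GRCh38.p14, chr14:104604723-104605022, minus strand: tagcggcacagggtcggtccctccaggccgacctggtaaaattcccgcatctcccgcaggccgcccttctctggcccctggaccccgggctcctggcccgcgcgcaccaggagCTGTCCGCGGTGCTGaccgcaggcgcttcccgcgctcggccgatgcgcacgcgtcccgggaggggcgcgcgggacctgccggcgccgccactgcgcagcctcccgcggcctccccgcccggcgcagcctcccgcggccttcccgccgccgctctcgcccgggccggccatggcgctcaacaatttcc
SCG3 promoter, GRCh38.p14, chr15:51681253-51681552, plus strand: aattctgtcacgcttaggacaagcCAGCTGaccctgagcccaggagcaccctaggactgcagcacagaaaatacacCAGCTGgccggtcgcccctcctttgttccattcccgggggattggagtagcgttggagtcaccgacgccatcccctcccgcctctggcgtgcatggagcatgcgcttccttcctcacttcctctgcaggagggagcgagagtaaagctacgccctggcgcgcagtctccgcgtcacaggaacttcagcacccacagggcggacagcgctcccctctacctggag
HES6 promoter, GRCh38.p14, chr2:238239989-238240288, minus strand: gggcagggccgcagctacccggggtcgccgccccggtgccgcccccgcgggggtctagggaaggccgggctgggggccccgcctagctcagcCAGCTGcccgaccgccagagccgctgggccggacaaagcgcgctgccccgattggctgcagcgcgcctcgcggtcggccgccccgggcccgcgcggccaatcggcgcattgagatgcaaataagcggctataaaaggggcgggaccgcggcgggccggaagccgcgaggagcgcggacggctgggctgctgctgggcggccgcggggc

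REST RNA itself lay below all 6 other lines in both H146 and H716, by unequal amounts, and was not called separated. It had 0.0375 FPKM in H146 and 22.9 FPKM in H716, against 27.1 to 53.6 FPKM (median 38.1) in the others. H146 therefore lay far below all other lines, while H716 lay slightly below the lowest of the 6. SRRM4, a neural splicing factor whose action yields a truncated REST, had 6.66 and 2.05 FPKM in H146 and H716, against at most 0.0409 FPKM. All 11 genes of the REST list passed the filter, and SRRM4, the 1 that passed only through H146 and H716, was the 1 separated member. Gene-level FPKM does not resolve REST isoforms. SYN1, SNAP25 and STX1A were called separated, so H716 lay above the 6 other lines for them by the rule. Any link between REST RNA and these genes was not tested.

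Amine and ion channel genes were shared in part. Of 13 genes of monoamine synthesis and uptake 5 passed the filter, 2 only through H146 and H716, and these 2, DDC and TPH2, were separated upward. TPH2, the neuronal tryptophan hydroxylase, had 2.27 and 2.19 FPKM in H146 and H716, against at most 0.139 FPKM. MAOA, which degrades serotonin, was listed at 0 in H146 and had 37.9 FPKM in H716, against 0.117 to 2.89 FPKM. MAOB was also listed at 0 in H146 and had 34.1 FPKM in H716. Of 28 excitability channels 18 passed the filter, 1 of them (KCNJ3) only through H146 and H716, and 2 were separated upward. KCNH2, a voltage-gated potassium channel, had 11.1 and 45.2 FPKM in H146 and H716, against 0 to 2.28 FPKM (median 0.2). KCNJ3, an inward rectifier gated by G proteins, had 2.34 and 33.3 FPKM in H146 and H716, against 0.00381 to 0.274 FPKM. CACNA1A, the P/Q-type calcium channel, had 45.6 FPKM in H146 and was listed at 0 in H716. CACNA2D2, a calcium channel subunit, was the reverse, at 0.987 FPKM in H146 and 76.2 FPKM in H716.

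Among 22 neural adhesion genes and small cell cancer antigens, 16 passed the filter, 1 only through H146 and H716, and 3 were separated upward. STMN2, a neuronal microtubule regulator, had 87.9 and 286 FPKM in H146 and H716, against 0 to 11.5 FPKM (median 0.15). SEZ6, a neuronal membrane protein, had 64.4 and 8.65 FPKM in H146 and H716, against 0.0665 to 1.06 FPKM. CELF3, an RNA-binding protein of the brain, had 2.29 and 11.5 FPKM in H146 and H716 and was listed at 0 in all 6 others. NCAM1, the diagnostic antigen CD56, had 52.3 and 84.5 FPKM in H146 and H716, but COV318 followed at 40.7 FPKM, and its gap was 0.35. DLL3, a Notch ligand targeted in small cell cancer, overlapped, with 7.98 and 6.84 FPKM in H146 and H716, against 0 to 8.55 FPKM with KLE highest. ELAVL4, the neuronal antigen HuD, had 60.5 FPKM in H146 and 0.017 FPKM in H716, against at most 0.0297 FPKM. RET, a receptor kinase of neural crest tumours outside the lists, had 4.98 and 8.48 FPKM in H146 and H716, against at most 0.334 FPKM.

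Notch genes were lower in 2 members and otherwise mixed. Of 23 listed, 18 passed the filter, and JAG1 and MAML2 were separated downward with 0 upward, at a median difference of -0.63. MAML2, a coactivator of the Notch complex, had 0.0385 and 0.298 FPKM in H146 and H716, against 9.11 to 30.6 FPKM (median 17.9). JAG1, a Notch ligand, had 3.32 and 2.98 FPKM in H146 and H716, against 7.90 to 42.6 FPKM, but its gap was under 1 in all 3 rescalings of the libraries and with a pseudocount of 5. NOTCH2 was listed at 0 in H146 and had 4.92 FPKM in H716, against 1.01 to 42.1 FPKM with HEC59 lowest. HES1, the repressor induced by Notch, had 0.122 FPKM in H146 and 7.70 FPKM in H716, against 3.22 to 44.6 FPKM, so H716 lay inside the range of the others.

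More members of the Hippo list than of any other list here were lower in both lines. YAP1 and WWTR1 (TAZ) are its transcriptional coactivators, which act through TEAD factors. All 26 listed genes passed the filter, none only through H146 and H716, and 9 were separated downward and 0 upward. The mean was lower in H146 and H716 for 25 of 26, and the median difference was -2.52 against -0.13 over all genes. YAP1 had 0.0586 FPKM in H146 and 6.11 FPKM in H716, against 29.3 to 65.0 FPKM (median 37.3). WWTR1 had 0.22 and 1.12 FPKM in H146 and H716, against 12.7 to 60.4 FPKM (median 38.6). PTPN14, a phosphatase that binds YAP1, was the most even in the others: 0.113 and 2.05 FPKM in H146 and H716, against 33.9 to 50.1 FPKM (median 44.6). On the log2 scale PTPN14 was 0.88 ± 1.03 in H146 and H716 (SD, n = 2) and 5.46 ± 0.20 in the 6 other lines (SD, n = 6).

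Kinase, partners and targets were lower as well. LATS2, the kinase that inactivates YAP1, had 0.00626 and 0.054 FPKM in H146 and H716, against 2.04 to 12.1 FPKM (median 4.06). AMOTL2, an angiomotin that binds YAP1, had 0.242 and 0.456 FPKM in H146 and H716, against 6.91 to 62.5 FPKM. Of the targets, CYR61, a matricellular protein, had 0.0159 and 3.86 FPKM in H146 and H716, against 21.2 to 249 FPKM (median 63.1). CTGF, the best known target, had 0.544 and 0.704 FPKM in H146 and H716, yet it was not called separated because HEC59 had only 1.41 FPKM while the highest line had 401 FPKM. MYOF, IGFBP3 and TEAD2 complete the 9, and TEAD2 (0 and 0.771 FPKM in H146 and H716, against 2.55 to 10.1 FPKM) lay closest to the rule, with a gap of 1.004 that was under 1 after quantile normalization, after scaling to a common sum and with a pseudocount of 5. H146 lay at least 1 below all 6 other lines for 13 of the 26 members and H716 for 9. Over all 15650 genes, H146 alone lay that far below all 6 in 3.39% and above them in 3.4%, and H716 alone below in 1.8% and above in 3.65%. The comparisons of H146 and of H716 share the same 6 lines.

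**Figure D3:**
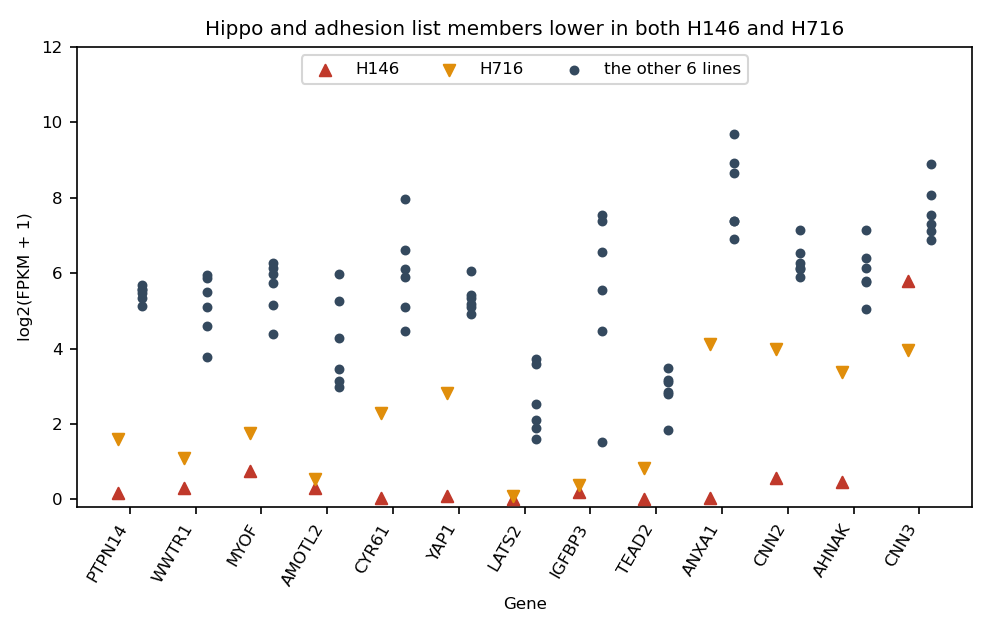
Each column is a Hippo list member (PTPN14 to TEAD2, 9 genes) or an adhesion and cytoskeleton list member (ANXA1 to CNN3, 4 genes) that was lower in both lines, on a log2(FPKM + 1) axis. Triangles are H146 and H716 and dots are the other 6 lines. H146 lies at or near 0 for all but CNN3, and H716 lies between H146 and the other lines for YAP1, CYR61, ANXA1, CNN2 and AHNAK.

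Adhesion and cytoskeleton genes showed a larger difference in H146 than in H716. All 43 listed genes passed the filter, 4 were separated downward (ANXA1, AHNAK, CNN2 and CNN3) and 0 upward, and the median difference was -2.03. The median was -2.62 for H146 and -1.17 for H716, each against the mean of the same 6 lines. ANXA1, a calcium-dependent membrane binder, had 0.0253 and 16.3 FPKM in H146 and H716, against 119 to 819 FPKM (median 287). AHNAK, a giant scaffold protein, had 0.383 and 9.48 FPKM in H146 and H716, against 31.8 to 139.7 FPKM. CNN2, an actin-binding calponin, had 0.474 and 14.8 FPKM in H146 and H716, against 58.8 to 139.8 FPKM. CNN3 had 54.5 and 14.6 FPKM in H146 and H716, against 117 to 473 FPKM, and its gap was under 1 in all 3 rescalings. CAV1, the coat protein of caveolae, had 0.0148 and 0.45 FPKM in H146 and H716, and H522 was as low at 0.227 FPKM, while 1321N1 had 1009.9 FPKM. VIM, the intermediate filament of mesenchymal cells, set H146 and H716 apart from each other: it had 0.219 FPKM in H146 and 402 FPKM in H716, against 167 to 2100.3 FPKM in the others.

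The widest gaps below the 6 other lines were in RRAS2, IGF2BP2, GPX8 and PTPN14, of which PTPN14 is on the Hippo list. RRAS2, a small GTPase of the RAS family, had 0.161 and 0.412 FPKM in H146 and H716, against 22.9 to 62.3 FPKM (median 43.3). IGF2BP2, an RNA-binding protein, had 0.0775 and 0.184 FPKM in H146 and H716, against 17.9 to 74.3 FPKM. GPX8, a peroxidase of the endoplasmic reticulum, had 0.0109 and 1.27 FPKM in H146 and H716, against 29.2 to 55.7 FPKM. MFAP5, a microfibril protein of the matrix, had 0.204 and 0.101 FPKM in H146 and H716, against 8.08 to 376 FPKM. Of the 93 lower genes 86 were protein-coding in GENCODE 29 and 41 lay below 1 FPKM in both lines. Their median level was 0.405 FPKM in H146 and 0.733 FPKM in H716, and the median of their lowest value among the 6 others was 5.90 FPKM. H146 was the lower of the 2 lines for 54 genes and H716 for 37. At the edge of the rule TCTN3 (12.1 and 14.2 FPKM in H146 and H716, against at least 29.5 FPKM) had a gap of 1.01, and RBMS2 (0.198 and 9.22 FPKM, against at least 19.4 FPKM) lay just outside at 0.999.

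The ERBB family, the reason these lines were profiled, included 1 separated gene. H716 lay inside the range of the others for ERBB4 and H146 below it, with 13.4 FPKM in H146 and 76.1 FPKM in H716, against 28.5 to 102 FPKM (median 35.1) in the others. ERBB2, its dimerisation partner, had 0.868 and 1.04 FPKM in H146 and H716, against 4.87 to 22.0 FPKM (median 11.4). EGFR had 0.00692 FPKM in H146 and 20.7 FPKM in H716, against 0.392 to 32.4 FPKM. Of 15 listed receptors and ligands 11 passed the filter, 10 of them with a lower mean in H146 and H716.

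Cell cycle genes showed no shared difference by the rule, at 0 of 18 RB1 pathway members and 0 of 18 proliferation genes separated either way. RB1, the tumour suppressor commonly lost in small cell cancer, had 2.31 FPKM in H146 and 55.6 FPKM in H716, against 12.8 to 49.5 FPKM. CCND1, cyclin D1, had 0.0996 FPKM in H146 and 197 FPKM in H716, against 19.1 to 342 FPKM. H146 was lowest of all 8 lines for both genes, while H716 was within or above the range of the 6. Neither the 4 MYC family genes nor the 23 genes of innate sensing and MHC class I that passed held a separated member. The innate list had a median difference of -1.10 in H146 and 0.27 in H716, so it did not share a direction. The 10 housekeeping genes included 0 separated members, at a median difference of -0.10 in H146 and 0.50 in H716.

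**Figure D4:**
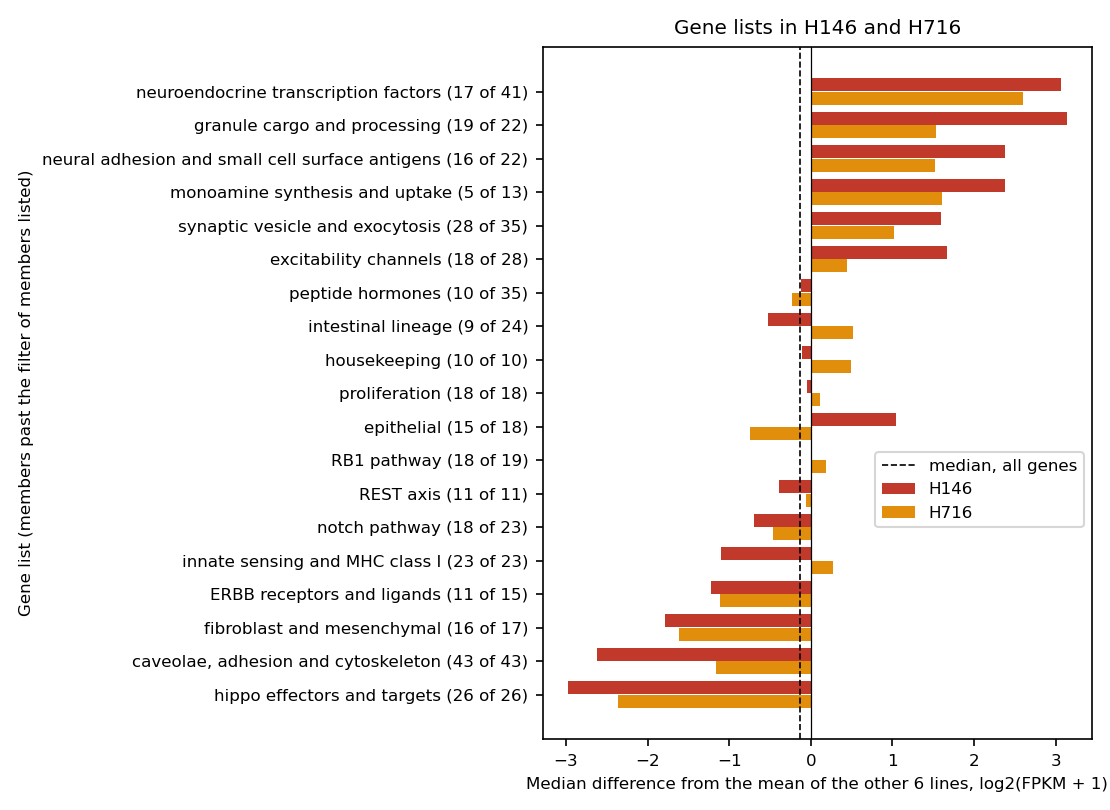
Bars give the median difference of each list's filtered members from the mean of the other 6 lines, on the log2(FPKM + 1) scale, in H146 (upper bar) and H716 (lower bar), for lists with at least 5 members past the filter. The dashed line is the median over all genes tested, -0.13. The granule and transcription factor lists are positive and the Hippo and adhesion lists negative in both lines. The epithelial, intestinal, innate, housekeeping and proliferation lists differ in sign between the lines.

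Markers of the labelled tissues were weak or line-specific. The 5 lung markers summed to 0.0167 FPKM in H146, and NKX2-1 stood at 0.0167 FPKM there and was listed at 0 in H716, so none of the 5 reached 1 FPKM in the line labelled lung. In H661, another lung line, NKX2-1 had 11.2 FPKM. ABCA3, a lipid transporter on the lung list, was higher in both lines at 22.3 and 31.5 FPKM in H146 and H716, against 1.23 to 9.82 FPKM. The 5 intestinal markers summed to 159.8 FPKM in H716, of which CDH17, an intestinal cadherin, gave 137 FPKM, while CDX1 was listed at 0 in every line. CDH17 was listed at 0 in H146. HNF4A, a gut and liver factor, had 1.75 and 16.1 FPKM in H146 and H716, against at most 1.60 FPKM in HEC59. The 5 epithelial markers summed to 372 FPKM in H146 and 71.5 FPKM in H716, against 15.9 to 2240.04 FPKM in the others.

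Markers of other cell types were examined because they could move with these genes. The 5 neuronal markers summed to 210.2 FPKM in H146 and 322 FPKM in H716, against 3.31 to 70.3 FPKM in the others, and STMN2, itself separated, gave 87.9 FPKM of it in H146 and 286 FPKM in H716. The 5 fibroblast markers summed to 2.33 FPKM in H146 and 95.4 FPKM in H716, against 3.55 to 711 FPKM. Of these 5, 4 lay below 1 FPKM in H146 and 2 in H716, COL1A1 in both. The 5 glial markers summed to 6.03 FPKM in H146 and 0.431 FPKM in H716, against 0 to 3.11 FPKM, with OLIG1 listed at 0 everywhere, 1321N1 included. Immune markers summed to 1.52 FPKM in H146 and 11.3 FPKM in H716, against 0.142 to 0.962 FPKM. The 5 immune markers were led in H716 by LYZ. The 4 endothelial markers summed to 0.0731 FPKM in H146 and were listed at 0 in H716, against 0.0379 to 2.59 FPKM. Their part in the differences above was not tested.

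On chromosome 19, in RefSeq gene order, 16 neighbouring tested genes running between LINC00665 and ZNF829 held 6 separated downward. This run was chosen after its values were seen, and by definition it starts and ends on separated genes. All 16 had a lower mean in H146 and H716, with a median difference of -1.32, and H716 lay below all 6 other lines in 16 of them and H146 in 12. Most encode KRAB zinc finger repressors, a family clustered on this chromosome. LINC00665, a long noncoding RNA, had 1.13 and 0.154 FPKM in H146 and H716, against 17.9 to 83.6 FPKM. ZNF382 had 0.0273 and 0.0305 FPKM in H146 and H716, against 4.92 to 21.0 FPKM. The groups were far apart for both. ZNF345 was an exception in the run, with 2.97 FPKM in H146 inside the range of the others and 0.241 FPKM in H716. Over 226 tested ZNF and ZFP genes of chromosome 19 the median difference was -0.50 and 5 were separated downward. The 226 include those of the run, and ZFP82, ZNF382, ZNF850 and ZNF829 of the run are among the 5. Over the 220 such genes elsewhere it was -0.07, with 1 separated downward and 1 upward, and over all 13620 genes that could be placed it was -0.14. Other genes of chromosome 19 had a median of -0.31 over 714 tested. Antisense transcripts in the run, such as ZNF790-AS1, cannot be told apart from their partners if reads were counted without strand.

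**Figure D5:**
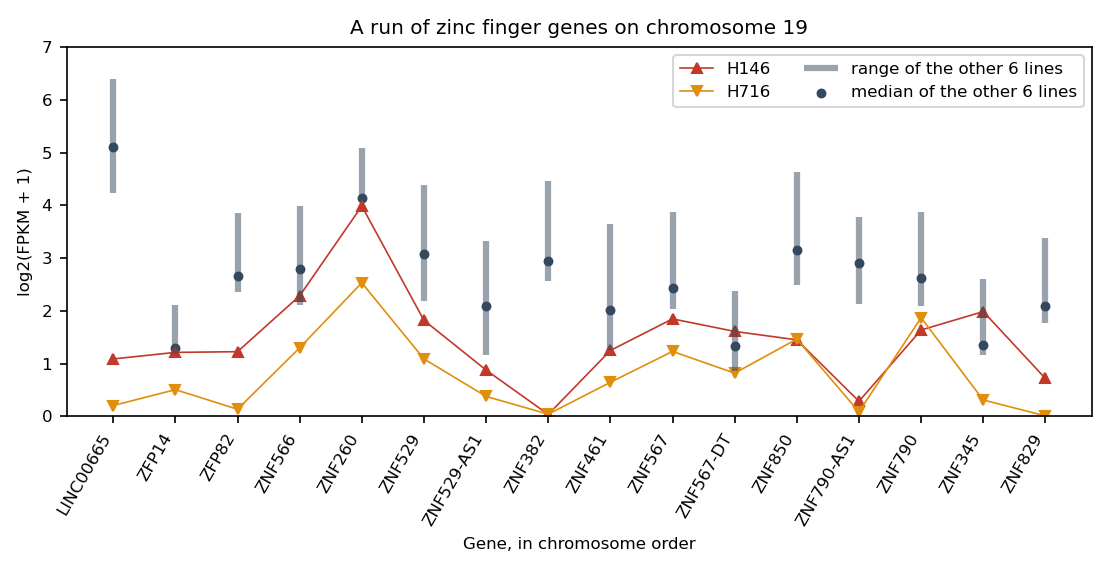
The 16 genes stand in chromosome order on the horizontal axis, with log2(FPKM + 1) on the vertical axis. Red triangles are H146, orange triangles H716, and grey bars with dots the range and median of the 6 other lines. H716 lies below every bar, and H146 lies below 12 of the 16.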

How the data were processed

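RNA of 8 cell lines was sequenced with Illumina libraries, 1 library a line. The authors deposited 1 table a line with FPKM values for 58202 gene identifiers. The submitters' processing notes name CASAVA 1.4, TopHat2 2.0.8, SAMtools 1.0 and GRCh37. For the program that gave FPKM, its annotation and the use of strand, the sources used here give nothing. No counts were used, so depth is unknown and no interval is given.

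FPKM was taken as deposited and set on the scale log2(FPKM + 1), with a pseudocount of 1. Genes at FPKM 1 or more in at least 2 lines were kept (15650), and a gap of 1 between both H146 and H716 and all 6 others made a call. No test was run, because the pair was chosen from these values. The members, lists and alternatives were chosen with earlier results of these data known. Named genes are the 20 widest gaps in each direction without clone-based, repeated or mitochondrial symbols, the separated and most different members of each list, up to 15 members beyond the others in 1 line only, the 4 marker genes and ERBB4. Other named genes were chosen after their values were seen, and 2 list members counted in their list are not reported here by name. Promoter windows and gene order came from RefSeq tables on GRCh38, another build than the files', and gene types from GENCODE 29. Scripts ran in Python 3.11.15 with pandas 2.3.3 and numpy 2.4.6 and were checked on simulated data. Alternatives covered the pseudocount, the filter, 3 rescalings, the gap and leaving out each line. No batch is labelled.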

Additional observations from a re-analysis of the deposited data

Results flagged for a closer look

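In 25 of the 88 genes checked, 1 of the 6 other lines stood apart from the remaining 5 on the FPKM scale (by its gap to the nearest line as a share of their range, Dixon's test value). Chance flags about 1 in 20 such groups of well-behaved values, and many of these genes are near 0 in most lines. No explanation was tested.

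HEC59 stood highest for INSM1 (0.236 FPKM), TAGLN3 (0.396 FPKM), TMEM176A (1.11 FPKM), ST18 (0.146 FPKM), FOXA2 (0.909 FPKM), PENK (0.0361 FPKM), ELAVL4 (0.0297 FPKM) and HNF4A (1.60 FPKM), and lowest for NOTCH2 (1.01 FPKM). H661 stood highest for TMEM179 (1.34 FPKM), CPLX2 (0.0222 FPKM), GCG (9.70 FPKM), KCNH2 (2.28 FPKM), CDH17 (0.445 FPKM) and NKX2-1 (11.2 FPKM). In 1321N1 the high values were those of TFF3 (0.0805 FPKM), PCSK1 (0.881 FPKM), NKX2-2 (0.92 FPKM) and NTS (26.0 FPKM). COV318 stood apart for SNAP25 (2.79 FPKM) and HES1 (44.6 FPKM), H522 for SYP (2.37 FPKM) and SYN1 (0.702 FPKM), and KLE for SRRM4 (0.0409 FPKM) and STMN2 (11.5 FPKM). Of these 25 values, 13 lay below 1 FPKM.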

How the results depend on the processing

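With a pseudocount of 0.1 the genes lower in both H146 and H716 numbered 205, and with 5 they numbered 27, beside 82 higher. A filter of FPKM 5 left 119 higher. With no gap required 704 were higher and 1114 lower, and with a gap of 2 these were 76 and 20. Leaving out each line in turn gave 199 to 468 higher and 104 to 530 lower. Counts were 468 and 282 without H146, 422 and 530 without H716, and 147 lower without HEC59. Omitting a line cannot narrow a gap, so larger counts there are built in. The median over all genes was 0 with no filter and -0.023 after quantile normalization. Median differences were 4.63 (granule), 4.42 (transcription factor), 1.87 (exocytosis) and -4.38 (Hippo) with a pseudocount of 0.1, and 1.49, 1.32, 0.83 and -1.58 with 5. They were 2.51, 0.59 and 1.17 for the first 3 lists with no filter. Granule and exocytosis medians were 3.37 and 1.69 with a filter of FPKM 5, and 3.06 and 1.62 after quantile normalization; the exocytosis median was 1.99 with a filter on mean FPKM. Leaving out lines in turn gave 1.05 (without H146) to 3.27 for the granule list, 1.64 to 3.18 for factors, 0.88 to 1.84 for exocytosis, -2.99 to -2.36 for Hippo and -2.73 to -1.17 for adhesion, and H146 was the line left out at 1.64, 0.88 and -1.17. Without HEC59 the granule and exocytosis medians were 3.15 and 1.23, without KLE the exocytosis median was 1.67. With H146 or H716 left out, members that passed the filter only through both dropped out of the lists. Of 64 separated genes checked one by one, 41 kept their call under each pseudocount, filter, rescaling and omitted line in which they passed the filter. Other gaps were not part of that count. A pseudocount of 0.1, a changed filter or fewer lines cannot narrow a gap. Only the pseudocount of 5 and the 3 rescalings could therefore remove a call. The cause of these shifts was not tested. No paired analysis was possible because the replicate numbers are accession order only. With 1 library a line and no counts, values near 0 cannot be ranked.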

Other observations

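Genes named here were chosen after their values were seen. EEF1D, a translation elongation subunit, was abundant everywhere but lower in both lines, at 27.1 and 22.6 FPKM in H146 and H716, against 80.5 to 177 FPKM (median 110.2) in the others. METRNL, a secreted factor, was listed at 0 in H146 and H716, against 3.67 to 27.0 FPKM in the others. Several separated genes are neighbours in RefSeq order. TMEM176B, TMEM176A and KCNH2 on chromosome 7 made a run of 3 of 3 tested genes, and ASXL3 to MAPRE2 on chromosome 18 held 3 of 4. Looser upward runs were STMN2 to FABP5 on chromosome 8 (3 of 8) and INSM1 to NAPB on chromosome 20 (4 of 10). Each run starts and ends on a separated gene by definition, which raises its share. Among all 13620 placed genes, 157 were separated upward. Whether TMEM176A and TMEM176B share reads was not examined.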
